A study of Mus musculus with 22 samples.

Results

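The enzymes that build cholesterol and fatty acids, with the sensor proteins that set their level, were examined in mouse kidneys whose ureter had been tied. The set was given as 32 gene symbols, and every probe annotated to 1 of them was taken. Of the 32, 31 had a tested value among the 17039 genes tested: 17 of 18 sterol enzymes, 5 of 5 regulators and 9 of 9 fatty acid enzymes. Acat2, which makes acetoacetyl-CoA for the sterol pathway, had no probe annotated to it alone and was not tested. In C57BL/6 mice the left ureter was ligated (obstructed), or dissected without being tied (sham), and kidney RNA was taken after 1, 2, 5 or 9 days. Each kidney RNA, labelled with Cy5, was put on an array together with a Cy3-labelled mouse universal reference RNA, a pool shared by all arrays. There were 22 arrays for 21 replicates: 2 sham kidneys at each day and 3, 3, 3 and 4 obstructed kidneys at days 1, 2, 5 and 9. Sham replicate S03 of day 1 is the mean of 2 arrays that carry the same number, S03L and S03R. No genetic change, drug or age of the mice is given in the labels, and replicates are named here as in the labels.

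Cholesterol is made from acetyl-CoA through mevalonate, isoprenoid and squalene to lanosterol, which a chain of demethylases, reductases and isomerases then turns into cholesterol. Long-chain fatty acids are made from the same acetyl-CoA by carboxylation, chain building, elongation and desaturation. Both sets of genes are known targets of the SREBP transcription factors, encoded by Srebf1 and Srebf2, which the protein Scap carries to the Golgi when sterols are low and which the Insig proteins hold back when sterols are high. In the kidney, the proximal tubule is known to live largely on fatty acid oxidation, and the fat around the kidney is a separate tissue with high fatty acid synthesis.

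Values are log2 ratios of kidney over reference RNA after each array's median was subtracted, so 1 unit is a 2-fold change, and they compare kidneys for 1 gene but not different genes with each other. An array had 35747 to 39871 measured ratios. A call means an adjusted p under 0.05, from a limma fit across all genes with Benjamini-Hochberg adjustment. Whether replicates are separate animals rests on their numbers alone, so p-values measure the spread between these samples. Markers of the proximal tubule, the main cell type of the labelled tissue, averaged 5.59 to 6.40 in sham kidneys and 4.30 to 5.38 in obstructed ones, where 9 of 12 of them fell over the 4 days and 0 rose. All 10 macrophage markers measured rose over the 4 days, from list means of -0.95 to -0.08 in sham kidneys to 0.10 to 2.67 in obstructed ones. Of 8 urothelium markers 4 rose and 0 fell over the 4 days, with list means of -0.25 to 1.03 in sham and 0.62 to 2.58 in obstructed kidneys. Of all genes, 27.0% rose and 25.9% fell over the 4 days. Fewer cells of a type and less RNA per cell cannot be told apart in whole kidney RNA, and the part of these shifts in the results below was not tested.

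A few kidneys stand apart in markers of neighbouring tissue. Sham S06R of day 1 had adrenal markers at a list mean of 3.02 over the 7 measured of 10, against 0.10 to 1.34 in the other 20 replicates. Star, which brings cholesterol to the steroid-making machinery of mitochondria, stood at 6.22 in S06R and at 0.16 to 2.70 elsewhere. Mc2r, the receptor for corticotropin, stood at 1.50 in S06R and at -0.02 to 0.65 elsewhere, while Nr5a1, an adrenal and gonadal transcription factor, was at 0.49 and inside the range of the others. Obstructed S04L of day 2 and S38L of day 1 and sham S22L of day 5 had low fat cell markers, with list means of 1.14, 2.23 and 2.70 against 3.28 to 4.78 in the other replicates. S06R is also the only day 1 array of image folder 1, where the folder is the 1 under which the labels store an array's image. Its name carries the letter R, whose meaning is unstated, as does 1 of the 2 arrays of S03, while all obstructed arrays carry L. The folder, the letter and the adrenal markers of S06R cannot be told apart. Leaving out a sham kidney leaves 1 sham kidney on its day, whose spread is then assumed to be that of the other groups and which gives the difference a larger SE, so values are given beside the calls. Star here, and Adipoq below, were singled out after their values were seen.

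Promoters of 26 of the 32 members were found among RefSeq promoter windows of mouse build GRCm38.p6, and the 250 bases before the annotated start were searched on both strands. The sterol regulatory element was searched as TCACNCCAC, the E-box as CACGTG, the CCAAT box as CCAAT and the GC box as GGGCGG. Matches of different elements may share bases. CCAAT was found in 20 of the 26 members and in 39.5% of the 13670 tested genes that have a window. GGGCGG was found in 21 of the 26 and in 54.1% of those genes, and CACGTG in 5 of the 26 and in 8.77%. TCACNCCAC was found in Hmgcs1 alone of the 26, and in 1.24% of the tested genes. These are matches of letters, not shown sites, and other spellings of the elements were not searched. The stretches next to the start are shown for the 5 sterol enzymes whose obstructed kidneys lay below the sham kidneys on all 4 days, read 5′ to 3′ along the gene, with CCAAT or its complement ATTGG and, in Hmgcs1, the sterol element in capitals.
Hmgcs1 (chr13:119690151-119690350, plus strand): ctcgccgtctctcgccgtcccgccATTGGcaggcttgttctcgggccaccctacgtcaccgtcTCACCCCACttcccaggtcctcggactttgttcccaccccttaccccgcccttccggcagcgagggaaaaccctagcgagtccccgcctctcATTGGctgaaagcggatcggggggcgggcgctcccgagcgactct
Mvd (chr8:122443423-122443572, minus strand): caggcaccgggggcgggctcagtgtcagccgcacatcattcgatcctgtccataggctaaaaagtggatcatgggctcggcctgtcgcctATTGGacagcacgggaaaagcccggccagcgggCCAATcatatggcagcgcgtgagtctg
Tm7sf2 (chr19:6067851-6068000, minus strand): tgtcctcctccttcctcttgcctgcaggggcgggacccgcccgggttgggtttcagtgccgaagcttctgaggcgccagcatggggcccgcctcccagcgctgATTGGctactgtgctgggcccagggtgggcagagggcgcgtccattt
Nsdhl (chrX:72918371-72918520, plus strand): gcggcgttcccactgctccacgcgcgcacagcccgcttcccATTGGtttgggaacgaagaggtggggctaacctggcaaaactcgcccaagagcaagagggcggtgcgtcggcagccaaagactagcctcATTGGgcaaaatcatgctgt
Ebp (chrX:8193513-8193662, minus strand): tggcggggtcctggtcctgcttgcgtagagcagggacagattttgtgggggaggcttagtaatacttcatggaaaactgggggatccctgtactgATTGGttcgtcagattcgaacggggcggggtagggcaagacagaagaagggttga

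Across the 4 days, 20 of the 31 genes fell in obstructed kidneys and 0 rose, where 25.9% of all genes tested fell and 27.0% rose. The median difference of the 31 genes was -0.50 and that of all genes -0.01. By role, 12 of 17 sterol enzymes fell, 4 of 5 regulators and 4 of 9 fatty acid enzymes. Taken by day, 7 members fell at day 1, where 9.41% of all genes fell, and 4 at day 2, where 6.44% fell. At day 5, 10 members fell against a background of 11.7%, and at day 9, 12 fell against 20.1%. None rose at day 1, 2, 5 or 9, where 8.12%, 9.05%, 14.4% and 21.2% of all genes rose. At least 1 daily call of a fall was made for 14 members, against 24.7% of all genes, and of a rise for 0, against 26.3%. Falls at each of the 4 days were called for Tm7sf2, Nsdhl, Ebp and Acacb, that is 4 of 31 genes, against 3.45% of all genes. Obstructed kidneys lay below sham kidneys without overlap on all 4 days in 6 members, Hmgcs1 and Mvd besides those 4, where 8.79% of all genes did so. None lay above them on all 4 days, where 7.99% of all genes did.

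**Figure D1:**
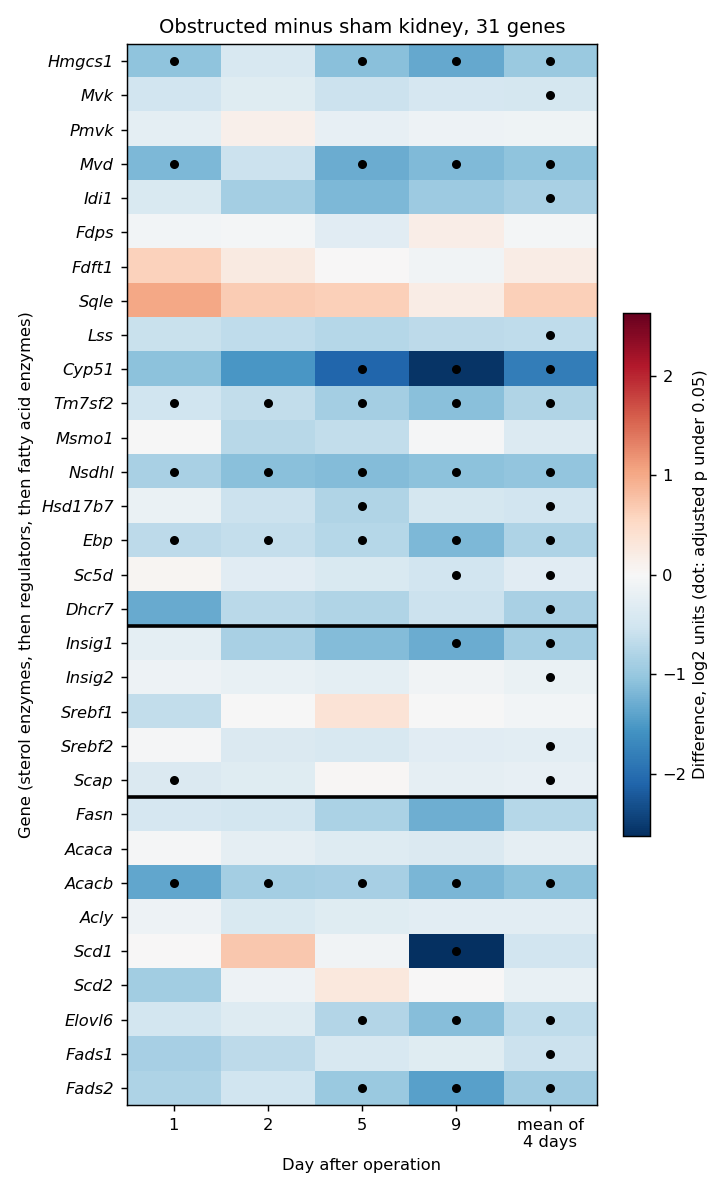
Difference between obstructed and sham kidneys (colour, log2 units, blue for lower in obstructed) for the 31 genes by day and as the mean of the 4 days, with a dot where the adjusted p was under 0.05. The 20 dots of the last column are all blue, and only Fdft1 and Sqle are above 0 there.

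The upper part of the sterol pathway, from acetyl-CoA to farnesyl pyrophosphate, did not move as a block. Hmgcs1, the synthase that makes HMG-CoA, had sham values of 1.54 and 1.26 at day 1, 1.51 and 1.09 at day 2, 1.20 and 1.04 at day 5 and 0.85 and 0.44 at day 9. In obstructed kidneys Hmgcs1 was at -0.11, 0.71 and 0.44 at day 1, at 0.87, 0.96 and 0.84 at day 2, at 0.02, 0.20 and -0.14 at day 5, and at -0.15, -0.97, -0.97 and -0.70 at day 9. Every obstructed kidney was below both sham kidneys of its day, with the narrowest gap at day 2. The difference was -0.97 ± 0.13 (SE) over the 4 days (adjusted p = 9.71e-06), or 50.9% of sham. By day Hmgcs1 stood at 48.1%, 75.2%, 47.0% and 39.4% of sham, with day 2 not called (adjusted p = 0.305). Without S22L the day 5 difference of Hmgcs1 went from -1.09 to -1.01 (adjusted p = 0.0528), and without S03 that of day 1 from -1.06 to -0.91 (adjusted p = 0.0840).

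Mvd, the decarboxylase that ends the mevalonate steps, behaved much like Hmgcs1. Its sham values were 0.49 and 0.93 at day 1, 0.87 and 0.45 at day 2, 0.69 and 0.50 at day 5 and 0.57 and 0.22 at day 9. Its obstructed values were -1.14, 0.07 and -0.34 at day 1, -0.03, 0.20 and 0.12 at day 2, -0.42, -0.61 and -1.07 at day 5, and -0.15, -0.995, -0.92 and -1.001 at day 9. The groups of a day did not overlap, and S09L was the highest of the day 9 kidneys by a wide gap. Mvd fell by 1.05 ± 0.16 over the 4 days (adjusted p = 4.55e-05), to 48.3% of sham, with calls at days 1, 5 and 9 but not at day 2 (adjusted p = 0.262). At day 1 its difference of -1.18 was -0.96 without S06R (adjusted p = 0.199), -0.85 without S02L (adjusted p = 0.0627) and -0.98 with the image folder as a block (adjusted p = 0.0713). At day 5 its difference of -1.30 was -1.21 without S22L (adjusted p = 0.0654), and at day 9 -1.16 was -0.99 without S10L (adjusted p = 0.0698).

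The remaining mevalonate and isoprenoid enzymes were lower by less or not called. Idi1, the isopentenyl isomerase, fell to 55.2% of sham over the 4 days (-0.86 ± 0.25, adjusted p = 0.00875) with no daily call and with sham values that ran from -0.998 to 0.17. Mvk, mevalonate kinase, fell to 72.8% (-0.46 ± 0.15, adjusted p = 0.0146), and without S06R the difference was -0.38 (adjusted p = 0.0501). Pmvk, the next kinase, differed by -0.12 ± 0.07 (adjusted p = 0.138). Fdps, which makes farnesyl pyrophosphate, differed by -0.06 ± 0.15 (adjusted p = 0.762), and its 2 probes gave 0.13 and -0.24 with neither called.

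The squalene steps that follow included the only members above 0 over the 4 days. Sqle, squalene epoxidase, had sham values of -1.41 and -1.11 at day 1, -0.48 and -1.62 at day 2, -0.30 and -2.44 at day 5 and -0.58 and -1.56 at day 9. Obstructed kidneys had -1.36, 0.57 and 0.07 at day 1, -0.34, -0.17 and -0.62 at day 2, -0.49, -0.56 and -1.17 at day 5, and 0.00, -1.34, -1.17 and -0.99 at day 9. The groups overlapped on each day, and the 2 sham kidneys of days 2, 5 and 9 were far apart. The difference of Sqle was 0.63 ± 0.31 and was not called (adjusted p = 0.0976); without sham S22L of day 5 it passed the test (0.89, adjusted p = 0.0154). Fdft1, squalene synthase, differed by 0.19 ± 0.11 (adjusted p = 0.159), and its 2 probes disagreed: 1 gave -0.32 (adjusted p = 0.0935) and the other 0.70 (adjusted p = 0.0123). At day 1 Fdft1 stood at -0.42 and -0.31 in sham and at 0.26, 0.53 and -0.08 in obstructed kidneys, and at day 2 at -0.48 and -0.29 in sham and at 0.04, -0.23 and -0.23 in obstructed kidneys. On both days every obstructed kidney was above both sham kidneys. The day 1 difference was 0.60 ± 0.22 (adjusted p = 0.0793), and it passed the test under 6 of 37 alternative settings. Lss, which folds the epoxide into lanosterol, fell to 62.8% of sham (-0.67 ± 0.15, adjusted p = 0.00128). Its obstructed kidneys lay below sham without overlap on days 2, 5 and 9.

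Most enzymes after lanosterol were lower in obstructed kidneys, with the lowest values against sham in Cyp51 and calls on every day in Tm7sf2, Nsdhl and Ebp. Cyp51, the demethylase that acts on lanosterol, had sham values of -0.71 and 1.31 at day 1, 1.13 and 0.11 at day 2, 0.46 and 0.78 at day 5 and 1.31 and 0.80 at day 9. In obstructed kidneys Cyp51 was at -1.91, 0.00 and -0.44 at day 1, -1.49, -0.57 and -0.68 at day 2, -0.88, -1.81 and -1.73 at day 5, and -0.85, -1.88, -1.82 and -1.52 at day 9. The groups overlapped at day 1, where S03 was low, and were apart on the later days. Cyp51 had the lowest mean difference of the 31 genes, -1.82 ± 0.29 over the 4 days (adjusted p = 9.19e-05) or 28.3% of sham, and its 3 probes gave -1.69, -1.95 and -1.82. It was called at days 5 and 9, at 23.4% and 16.8% of sham, and not at day 1 (adjusted p = 0.244) or day 2 (adjusted p = 0.0970). At day 5 its difference of -2.09 was -2.25 without S22L (adjusted p = 0.0653) and -1.93 without S32L (adjusted p = 0.102).

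Tm7sf2, a reductase that takes the product of Cyp51, varied little between kidneys of a group. Its sham values were 1.31 and 1.40 at day 1, 1.42 and 1.60 at day 2, 1.54 and 1.47 at day 5 and 1.40 and 1.36 at day 9. Obstructed kidneys were at 0.77, 0.86 and 0.90 at day 1, 0.95, 0.62 and 1.01 at day 2, 0.65, 0.52 and 0.64 at day 5, and 0.41, 0.25, 0.14 and 0.36 at day 9. The 8 sham kidneys spanned 1.31 to 1.60, and all 13 obstructed kidneys were below that span. Tm7sf2 fell to 70.0%, 63.9%, 53.6% and 46.8% of sham at days 1, 2, 5 and 9, and over the 4 days by 0.79 ± 0.06 (adjusted p = 4.62e-08). Without S06R the day 1 difference went from -0.52 to -0.47 (SE 0.16, adjusted p = 0.0954).

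Nsdhl, a dehydrogenase that works in removing the methyl groups next to the hydroxyl end, fell on each day. Its sham values were 0.85 and 1.10 at day 1, 1.72 and 1.07 at day 2, 1.17 and 1.05 at day 5 and 0.88 and 0.96 at day 9. Its obstructed values were -0.20, 0.27 and 0.27 at day 1, 0.06, 0.41 and 0.43 at day 2, 0.05, 0.02 and -0.16 at day 5, and 0.27, -0.48, -0.30 and -0.16 at day 9. Obstructed kidneys reached at most 0.43 and sham kidneys at least 0.85. Nsdhl stood at 55.1%, 46.7%, 45.4% and 47.1% of sham by day, and over the 4 days its difference was -1.05 ± 0.11 (adjusted p = 1.3e-06), with 4 probes between -1.17 and -0.92. Its day 1 difference of -0.86 was -0.73 without S06R (adjusted p = 0.158), -0.70 without S02L (adjusted p = 0.0516) and -0.77 with the image folder as a block (adjusted p = 0.0536). At day 2 its difference of -1.10 was -0.77 without S08L (adjusted p = 0.0930).

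Ebp, the isomerase that moves a double bond of the sterol ring, likewise fell on each day. Its sham values were 1.74 and 1.90 at day 1, 1.82 and 1.78 at day 2, 1.61 and 1.75 at day 5 and 1.91 and 1.80 at day 9. In obstructed kidneys it was at 0.87, 1.15 and 1.38 at day 1, 1.23, 1.00 and 1.30 at day 2, 0.92, 1.08 and 0.83 at day 5, and 0.85, 0.58, 0.60 and 0.63 at day 9. No obstructed kidney came up to the lowest sham kidney, which stood at 1.61. Ebp fell by 0.81 ± 0.07 over the 4 days (adjusted p = 2.09e-07), to 57.0% of sham, and at day 9 stood at 43.9%. Its day 2 difference of -0.62 (SE 0.14) was -0.60 without S08L and -0.64 without S39R. Either fit had an SE of 0.19 and did not keep the call.

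**Figure D2:**
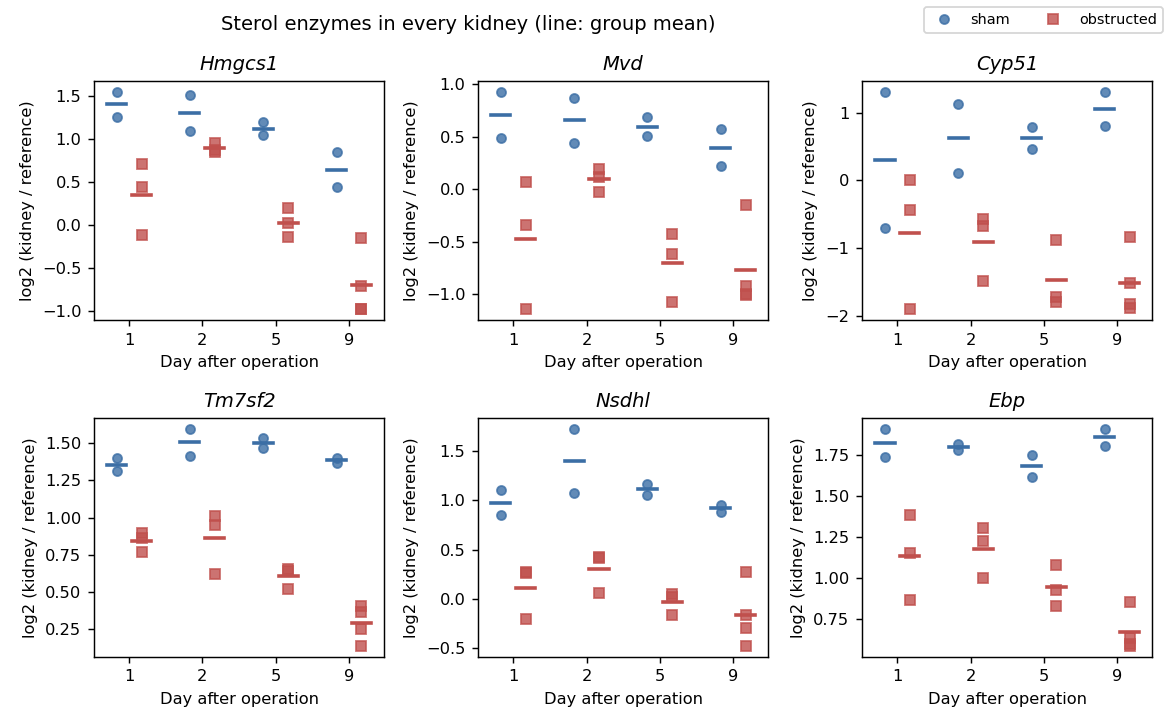
Log2 ratio of kidney over reference (each array's median subtracted) of 6 sterol enzymes in every replicate by day, circles for sham and squares for obstructed kidneys, with a line at each group mean. Except for Cyp51 at day 1, every square lies below both circles of its day.

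Of the other enzymes after lanosterol, Dhcr7, Hsd17b7 and Sc5d were called over the 4 days, with smaller or less even differences. Dhcr7, the reductase that gives cholesterol, fell to 55.5% of sham (-0.85 ± 0.24, adjusted p = 0.00786), with no daily call. Its sham values at day 1 were -0.37 in S03 and 1.30 in S06R, and the obstructed values of that day were -1.88, -0.24 and -0.47, so the groups overlapped. Hsd17b7, a ketoreductase that works with Nsdhl, fell to 70.7% (-0.50 ± 0.13, adjusted p = 0.00527), and its called day 5 difference of -0.80 was -0.41 without S22L (adjusted p = 0.424). Sc5d, a desaturase near the end of the pathway, fell to 81.9% (-0.29 ± 0.10, adjusted p = 0.0210), but its probes disagreed, at -0.08 (adjusted p = 0.769) and -0.49 (adjusted p = 0.00154). Msmo1, the oxidase that removes methyl groups before Nsdhl acts, differed by -0.36 ± 0.26 and was not called (adjusted p = 0.261), and its sham values at day 5 were 0.51 and -1.69.

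The day 1 results were set beside a fit without the sham kidney with adrenal markers. S06R was above S03, the other sham kidney of that day, in 16 of 17 sterol enzymes, in 56.0% of all genes and in 30 of 31 members, Hmgcs1 being the exception. Among all sham kidneys, S06R was the highest in Mvd, Cyp51, Dhcr7 and some other members. S03 was the lowest in Mvk, Cyp51, Tm7sf2, Nsdhl, Dhcr7 and others, and the highest in Hmgcs1. Proximal tubule markers had a list mean of 6.40 in S06R, the highest of all replicates, and 5.84 in S03. Which of these 2 kidneys is the unusual one was not tested. Adrenal cortex is known to make and use cholesterol at a high rate. How far adrenal RNA, the image folder or what the letter R stands for sets the level of the members in S06R was not tested. With both sham kidneys 7 members fell at day 1, and with S03 as the only sham kidney 2 did, where the share of all genes that fell went from 9.41% to 3.16%. These 2 were Hmgcs1 (-1.20, adjusted p = 0.0422) and Acacb (-1.30, adjusted p = 0.0368). Without S06R the day 1 difference of Cyp51 went from -1.08 to -0.07 and that of Dhcr7 from -1.33 to -0.49, while that of Ebp went from -0.69 to -0.60 (adjusted p = 0.0702). Over the 4 days 16 members fell without S06R, with 23.8% of all genes. The 4 that no longer passed went from -0.46 to -0.38 (Mvk), -0.29 to -0.23 (Sc5d), -0.17 to -0.15 (Insig2) and -0.28 to -0.25 (Srebf2), with adjusted p of 0.0501, 0.0679, 0.0718 and 0.0526. Leaving out S03 in place of S06R gave 10 falls at day 1, with 7.01% of all genes.

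**Figure D3:**
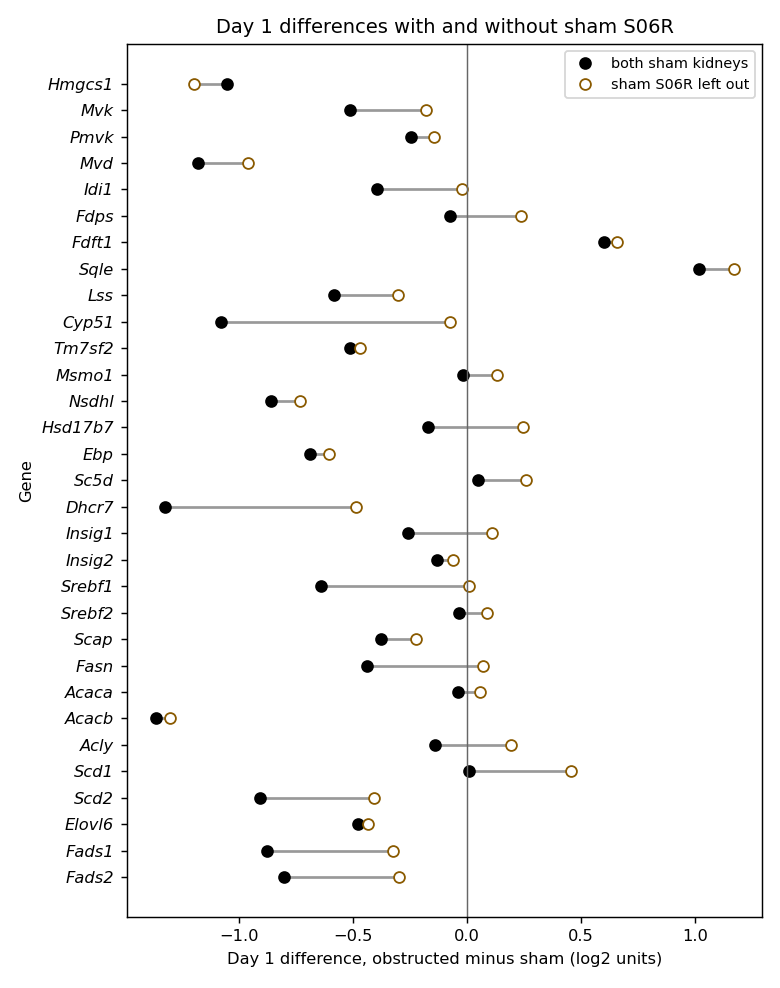
Day 1 difference between obstructed and sham kidneys (log2 units) of the 31 genes with both sham kidneys (filled) and with sham S06R left out (open). The open circle lies to the right of the filled one in 30 genes, farthest for Cyp51, which went from -1.08 to -0.07.

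Of the regulators, 4 of 5 fell over the 4 days, among them genes that hold the pathway back and genes that drive it. Insig1, a sterol-sensing anchor protein that is itself a known target of the SREBPs, had sham values of -2.30 and -1.56 at day 1, -0.88 and -2.12 at day 2, -0.98 and -1.67 at day 5 and -1.33 and -1.33 at day 9. Obstructed kidneys had -2.60, -1.49 and -2.47 at day 1, -2.84, -2.03 and -2.16 at day 2, -2.34, -2.25 and -2.81 at day 5, and -2.04, -2.69, -2.92 and -2.89 at day 9. The groups overlapped at days 1 and 2 and were apart at days 5 and 9. Insig1 fell to 54.1% of sham over the 4 days (-0.89 ± 0.20, adjusted p = 0.00183) and to 40.5% at day 9 (adjusted p = 0.0147). With either sham kidney of day 9 left out the difference of -1.30 stayed at -1.30 or -1.31 with an SE of 0.53, and the adjusted p was 0.0691 and 0.0822.

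The other regulators moved by smaller amounts. Scap, the escort of the SREBPs, fell to 85.6% of sham over the 4 days (-0.22 ± 0.06, adjusted p = 0.00295). It was called on day 1 alone among the days (adjusted p = 0.0297), with 0.89 and 1.19 in sham and 0.61, 0.73 and 0.65 in obstructed kidneys, and without S06R its difference went from -0.38 to -0.22 (adjusted p = 0.377). Srebf2, the SREBP gene tied most closely to sterol synthesis, fell to 82.1% (-0.28 ± 0.09, adjusted p = 0.0187). Its 4 probes disagreed, with -0.61 and -0.39 called and -0.15 and 0.02 not. Insig2 fell to 88.9% (-0.17 ± 0.06, adjusted p = 0.0283), with 1 of its 2 probes called, at -0.28, and the other at -0.06. Srebf1, the SREBP gene tied most closely to fatty acid synthesis, differed by -0.08 ± 0.19 (adjusted p = 0.760), and the highest of its sham values, 0.71, was that of S06R.

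The fatty acid enzymes split by gene. Acacb, the acetyl-CoA carboxylase whose malonyl-CoA is known to restrain the entry of fatty acids into mitochondria, fell on each day. Its sham values were 1.54 and 1.68 at day 1, 1.86 and 1.34 at day 2, 1.29 and 1.91 at day 5 and 1.04 and 1.50 at day 9. Its obstructed values were 0.41, 0.18 and 0.14 at day 1, 0.53, 0.87 and 0.71 at day 2, 0.14, 1.07 and 0.96 at day 5, and -0.18, 0.20, 0.26 and 0.02 at day 9. The groups did not overlap on any day. Over the 4 days its 2 probes gave -0.73 and -1.44, both called, but by day they differed. The probe at -1.44 was called at days 1, 2, 5 and 9, at -1.65, -0.97, -1.28 and -1.85. The probe at -0.73 was called on no day, at -1.08, -0.83, -0.47 and -0.54. With the probes averaged, Acacb stood at 38.8%, 53.5%, 54.5% and 43.7% of sham by day. Its difference over the 4 days was then -1.08 ± 0.13 (adjusted p = 4.68e-06). At day 2 its difference of -0.90 was -0.64 without S08L and did not keep the call. It was -0.81 without S04L (adjusted p = 0.0902), -0.98 without S18L (adjusted p = 0.05004) and -0.91 without S30L (adjusted p = 0.0610). At day 5 its difference of -0.87 was -0.56 without S32L, which did not keep the call, and -0.58 without S19L (adjusted p = 0.0887). Acaca, the carboxylase of the cytosol that feeds fatty acid synthesis, differed by -0.25 ± 0.14 and was not called (adjusted p = 0.167). Acly, which supplies cytosolic acetyl-CoA from citrate, differed by -0.28 ± 0.13 (adjusted p = 0.0756).

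Elovl6 and Fads2 had their lowest differences at day 9. Elovl6, an elongase, had sham values of 1.36 and 1.45 at day 1, 1.46 and 1.53 at day 2, 2.17 and 1.45 at day 5 and 1.68 and 1.65 at day 9. In obstructed kidneys it was at 0.75, 0.98 and 1.06 at day 1, 0.99, 1.12 and 1.36 at day 2, 0.64, 1.54 and 0.94 at day 5, and 0.59, 0.44, 0.55 and 0.59 at day 9. Only at day 5 did the groups overlap, through S21L at 1.54. Elovl6 fell to 62.5% of sham over the 4 days (-0.68 ± 0.11, adjusted p = 9.45e-05) and to 45.8% at day 9 (adjusted p = 0.000563). At day 5 its called difference of -0.77 was -0.41 without S22L (adjusted p = 0.296).

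Fads2, a desaturase of polyunsaturated fatty acids, had sham values of 0.50 and 1.50 at day 1, 1.27 and 0.75 at day 2, 0.76 and 0.98 at day 5 and 1.08 and 1.06 at day 9. Its obstructed values were -0.42, 0.67 and 0.33 at day 1, 0.36, 0.60 and 0.52 at day 2, -0.04, 0.00 and -0.29 at day 5, and -0.04, -0.58, -0.43 and -0.41 at day 9. From day 2 on, all obstructed kidneys were below both sham kidneys of their day. Fads2 fell to 52.2% of sham over the 4 days (-0.94 ± 0.15, adjusted p = 6.48e-05), and was called at day 5 (50.6%) and day 9 (36.9%). Without S22L the day 5 difference went from -0.98 to -1.09 (adjusted p = 0.0715), and without S32L to -0.88 (adjusted p = 0.135). Fads1, its partner desaturase, fell to 67.2% (-0.57 ± 0.17, adjusted p = 0.00901), with no daily call.

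**Figure D4:**
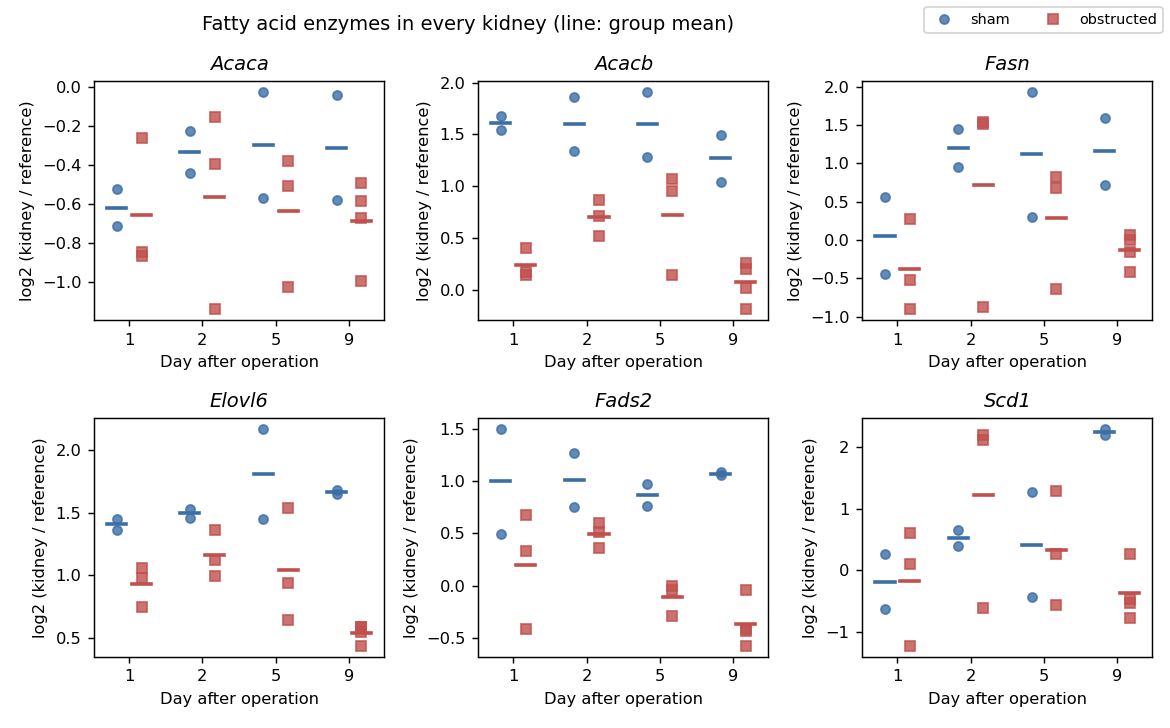
Log2 ratio of kidney over reference (each array's median subtracted) of 6 fatty acid enzymes in every replicate by day, circles for sham and squares for obstructed kidneys, with a line at each group mean. Acacb is apart on every day, and Scd1 only at day 9, where sham kidneys stand at 2.31 and 2.20 and obstructed ones at -0.77 to 0.27.

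Scd1 and Fasn, which are also abundant in fat, varied widely within groups. Scd1, the desaturase that makes monounsaturated fatty acids, had sham values of -0.63 and 0.26 at day 1, 0.65 and 0.40 at day 2, -0.44 and 1.27 at day 5 and 2.31 and 2.20 at day 9. Obstructed kidneys were at 0.10, 0.61 and -1.23 at day 1, -0.62, 2.20 and 2.11 at day 2, 1.29, 0.27 and -0.56 at day 5, and -0.52, 0.27, -0.47 and -0.77 at day 9. The groups overlapped at days 1, 2 and 5, and at day 9 both sham kidneys were far above all 4 obstructed ones. Both were also above every sham kidney of days 1, 2 and 5, which ran from -0.63 to 1.27. The obstructed kidneys of day 9, at -0.77 to 0.27, lay within the range of the earlier obstructed ones, -1.23 to 2.20. Scd1 fell to 16.2% of sham at day 9 (-2.63 ± 0.74, adjusted p = 0.0101), and was not called over the 4 days (-0.50 ± 0.39, adjusted p = 0.298). Without S10L or S33L the day 9 difference was -2.58 or -2.68 with an SE of 0.99, and the adjusted p was 0.0578 or 0.0614. Its day 9 minus day 1 difference was -2.64 ± 1.08 (adjusted p = 0.129). Without the 3 kidneys of low fat cell markers, a setting added after the data were seen, that difference was -3.17. Those 3 include S38L, the lowest obstructed kidney of day 1 in Scd1, and no day 9 kidney. Leaving them out took the day 1 difference of Scd1 from 0.01 to 0.54, so this setting adds nothing to the comparison of days. Scd2, its paralog, differed by -0.19 ± 0.23 (adjusted p = 0.510), and at day 9 by 0.01 ± 0.43.

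Fat cell markers were set beside Scd1. Adipoq, a hormone of fat cells, stood at -0.54 in S04L, 3.80 in S22L and 4.36 in S38L, against 5.21 to 6.20 in all other replicates. Scd1 was the lowest of its group of 2 or 3 in each of those 3 kidneys. So were 37.6% of all genes in S04L, 50.2% in S22L and 33% in S38L. Among sham kidneys Scd1 was lowest in S03, at -0.63 with Adipoq at 6.19, and highest in S10L, at 2.31 with Adipoq at 5.41. Not every marker of the list set S04L, S22L and S38L apart. Fabp4 was 5.49 in S04L and lower, at 5.40, in S09L. Lep, at 1.71 in S22L, was the highest there of the sham kidneys with a value. At day 9 Adipoq was 5.41 and 5.98 in sham and 5.44 to 5.91 in obstructed kidneys. Ucp1, the uncoupling protein of brown fat, was 5.42 and 6.30 in sham kidneys of day 9 and 1.75 to 3.54 in obstructed ones, and fell by 2.12 ± 0.67 over the 4 days (adjusted p = 0.0147). Of the 9 fat cell markers measured of 10, Plin4 rose (1.24) and Lpl (-1.07) and Ucp1 fell over the 4 days, where 27.0% of all genes rose and 25.9% fell. The list mean was 3.36 to 4.50 in sham and 3.28 to 4.0 in obstructed kidneys at day 9. The part of fat in the Scd1 values was not tested.

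**Figure D5:**
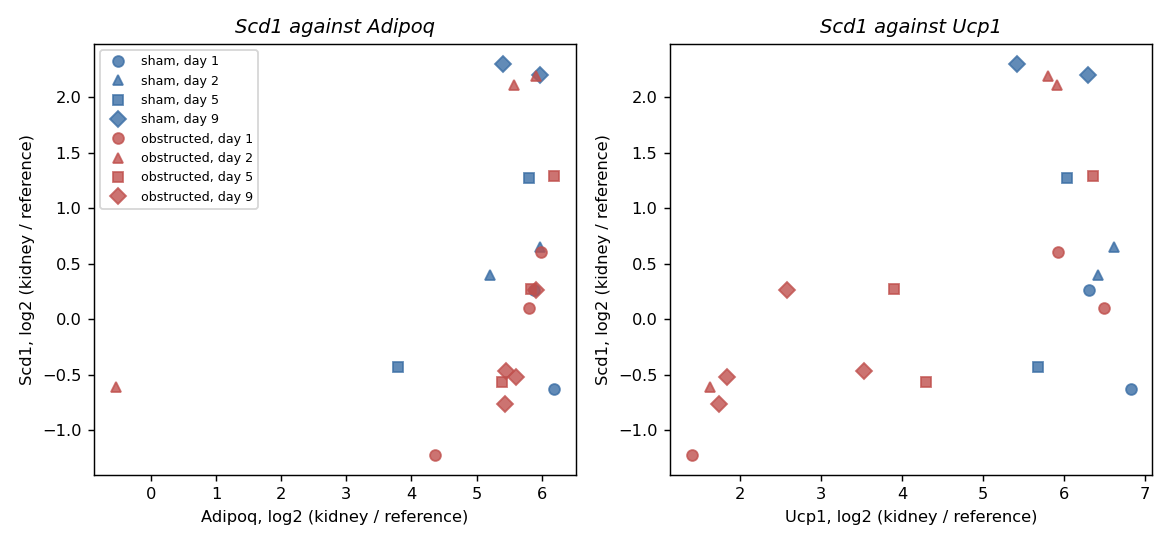
Scd1 in every replicate against the fat cell markers Adipoq (left) and Ucp1 (right), all as log2 ratio of kidney over reference with each array's median subtracted; colour marks the operation and shape the day. At day 9 the sham and obstructed kidneys share an Adipoq range of 5.41 to 5.98, while their Ucp1 values are apart.

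Fasn, fatty acid synthase, differed by -0.76 ± 0.34 over the 4 days and was not called (adjusted p = 0.0698). Its day 9 values were 0.72 and 1.59 in sham and -0.16, 0.00, 0.06 and -0.42 in obstructed kidneys, which did not overlap, with a difference of -1.28 ± 0.64 (adjusted p = 0.123). Without S04L, S22L and S38L, a setting added after the data were seen, the difference of Fasn was -0.74 over the 4 days and still -1.28 at day 9. None of these is a day 9 kidney. The SE at day 9 went from 0.64 to 0.45 because the spread is shared by all groups. S32L was then the only sham kidney of day 5.

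The effect of obstruction was then compared between days. In the F test of a difference between the 4 days, 0 members passed, where 5.05% of all genes did; 3 members had an unadjusted p under 0.05, namely Tm7sf2, Ebp and Scd1. For day 9 minus day 1, Tm7sf2 alone passed, its difference going from -0.52 to -1.09 (-0.58 ± 0.17, adjusted p = 0.0348), where 4.18% of all genes passed downward and 7.48% upward. Of the 37 alternative settings, the fit of each day by itself gives no comparison of days. Under 12 of the others Tm7sf2 did not pass, 8 of which left out a single kidney of day 1 or day 9 and gave -0.63 to -0.53. Ebp differed by -0.50 ± 0.20 between the same days (adjusted p = 0.121) and Hmgcs1 by -0.29 ± 0.35 (adjusted p = 0.649).

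Kidneys of a group were also ranked in each of the 17 sterol enzymes, with the same ranks over 16129 genes without missing values beside them. Obstructed S02L was the lowest of its 3 day 1 kidneys in 15 enzymes and in 37.4% of all genes, and S05L the highest in 14 and in 29.3%. S31L was the lowest of the day 5 kidneys in 15 enzymes and in 36.1% of all genes, and S09L the highest of the 4 day 9 kidneys in 13 and in 37.1%. In sham kidneys S08L was above S39R in 14 enzymes at day 2 and in 55.9% of all genes, and S22L above S32L in 14 at day 5 and in 49.8%. The enzymes of a kidney share its array, and these ranks were not tested.

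Leaving out a sham kidney changed how many members and how many of all genes were called on its day. Without S08L 1 member fell at day 2 in place of 4, and 1.99% of all genes in place of 6.44%, and without S39R 3 fell, with 3.37%. Without S22L 4 fell at day 5 in place of 10, and 6.93% of all genes in place of 11.7%, while without S32L 11 fell, with 6.94%. Without S10L 8 fell at day 9 in place of 12, and 16.4% of all genes in place of 20.1%, and without S33L 9 fell, with 12.5%. The image folder splits the day 5 kidneys into S22L against S19L and S21L in folder 1 and S32L against S31L in folder 2. Within these folders the day 5 difference of Hmgcs1 was -1.08 and -1.18, and that of Mvd -1.20 and -1.58. These are the same kidneys as in the day 5 test, so a shared sign adds nothing to it. With the folder as a block 4 members fell at day 1, with 6.33% of all genes, and 12 at day 5, with 11.9%.

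Neighbouring genes of lipid metabolism did not all go the same way. Of 17 genes measured of 20 for sterol efflux, storage and transport, 6 rose and 7 fell over the 4 days. Of all genes, 27.0% rose and 25.9% fell. Abca1, the transporter that exports cholesterol, rose by 1.26 ± 0.09 (adjusted p = 4.09e-08), from 0.88 to 2.03 in sham kidneys to 2.22 to 3.30 in obstructed ones. Abcg1, a transporter with a like role, rose by 0.71 ± 0.09 (adjusted p = 1.16e-05), and Ch25h, an enzyme that makes an oxysterol known to hold back SREBP processing, rose by 2.12 ± 0.25 (adjusted p = 3.4e-06). Vldlr, a lipoprotein receptor, fell by 0.98 ± 0.08 (adjusted p = 5.6e-08). All 13 obstructed kidneys were above all 8 sham kidneys in Abca1, on the days when the macrophage markers rose, and the part of that cell type was not tested.

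Genes that process or degrade the SREBPs and their partners counted 1 rise and 6 falls among 9 measured of 11, where 27.0% of all genes rose and 25.9% fell. The leading falls were those of Erlin1 (-0.57), Spring1 (-0.39), Aup1 (-0.37) and Erlin2 (-0.24), each with an SE of at most 0.11. Genes of the branches from farnesyl pyrophosphate to dolichol, ubiquinone and protein prenylation counted 1 rise and 4 falls among 10 measured of 12, beside the same shares of all genes. Nus1, a subunit of the enzyme that starts dolichol synthesis, fell by 0.78 ± 0.10 (adjusted p = 9.9e-06), and Fntb, a subunit of the farnesyltransferase, rose by 0.45 ± 0.07 (adjusted p = 8.43e-05).

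Genes of acyl-CoA supply, elongation and glyceride synthesis counted 3 rises and 13 falls among 22 measured of 23, with a median difference of -0.33. Of all genes, 27.0% rose and 25.9% fell. Mogat2, an acyltransferase that makes diglyceride, fell by 2.31 ± 0.20 (adjusted p = 1.64e-07). Dgat2, which makes triglyceride, fell by 1.12 ± 0.12 (adjusted p = 1.33e-06), and Acss2, which makes acetyl-CoA from acetate, fell by 1.14 ± 0.15 (adjusted p = 1.17e-05). Acss2 was at 1.40 to 1.81 in the 8 sham kidneys and at -0.45 to 1.04 in the 13 obstructed ones, with no overlap. Tecr, a reductase of fatty acid elongation, fell by 0.67 ± 0.07 (adjusted p = 1.74e-06).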

How the data were processed

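Whole kidney RNA was measured on 22 two-channel arrays. The deposited table holds the authors' log10 ratios of kidney (Cy5) over reference (Cy3), a unit inferred from the values, since the labels do not state it. Per the labels' protocols RNA was extracted with Trizol, and how arrays were scanned, corrected and normalized is not given in any source used here. The design had assumed log2 ratios, so values were multiplied by 3.32 and the test was kept. Values of exactly 0 were taken as missing. Probes of 1 gene with a value on at least 18 arrays were kept, array medians subtracted and probes averaged per gene. Of 60 member probes 59 were kept, and no member value was missing. Arrays S03L and S03R were averaged to 1 replicate.

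A fit of 8 group means (limma 3.58.1 in R 4.3.3, eBayes, Benjamini-Hochberg over 17039 genes) gave the contrasts and was tested on simulated data. The number of arrays limits the precision, and intensities were not analysed here. What the letter L or R in a sample name stands for is unstated; all 3 R arrays are sham. Every tested member is described, and of each other list at most the 4 genes of lowest p are named, with exceptions stated. The members and lists were chosen with earlier results of these data known. Alternatives were other scalings, filters, probe rules, weights, folder blocks and left-out replicates.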

Additional observations from a re-analysis of the deposited data

Results flagged for a closer look

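Mvd in obstructed kidney S09L of day 9 stood at -0.15, far from the other 3 kidneys of that group, which were at -1.001 to -0.92: the gap was 0.908 of the group's range. A gap of that kind arises by chance in about 1 of 20 groups. All 31 tested members were screened in this group and Mvd alone was flagged, which is not above that rate.

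The obstructed minus sham difference of Tm7sf2 differed between days 9 and 1 by -0.58 on the log2 scale, in the test of that difference itself (limma, adjusted p = 0.0348).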

How the results depend on the processing

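The 31 genes gave 186 results, of which 54 were called. Under 37 alternatives, 2 of them added after seeing the data, 21 of these calls held throughout and 33 were lost under at least 1, and no call turned to the other direction. The fit of each day by itself gives daily results only, so it does not enter for results over the 4 days or between days. Over the 4 days 12 of 20 calls held throughout (Hmgcs1, Mvd, Lss, Cyp51, Tm7sf2, Nsdhl, Ebp, Insig1, Scap, Acacb, Elovl6 and Fads2), and 9 of 33 daily calls did. Without single replicates the members that fell numbered 2 to 10 at day 1, 1 to 4 at day 2, 4 to 11 at day 5, 8 to 13 at day 9, 16 to 22 over the 4 days and 0 to 2 for day 9 minus day 1. Those that rose numbered 0 to 1 at day 1 and 0 to 2 over the 4 days, and those passing the F test 0 to 1. These ranges include fits that left 1 sham kidney on a day. The share of all genes that fell on that day dropped as well, as given above for each sham kidney. Falls at day 1 numbered 4 with the image folder as a block, where 6.33% of all genes fell in place of 9.41%. With each day fitted by itself there was 1 fall at day 1 and 1 at day 2, and the share of all genes was not counted. Arrays marked L alone and folder 2 alone each left 1 sham kidney at day 1, so their counts are not given. Likewise, folder 2 alone and the fit without S04L, S22L and S38L each left 1 sham kidney at day 5, so their day 5 counts are not given. There was 1 rise at day 1 with each probe by itself, with S03L and S03R apart, with the folder block, with array weights and without those 3 kidneys. Over the 4 days there was 1 rise with each probe by itself, the folder block or array weights, and 2 without those 3 kidneys. For day 9 minus day 1, 2 members fell with no subtraction of medians, with zeros kept, with each probe by itself, with array weights and without S02L, S09L and S21L, and 0 with the folder block or in folder 2 alone. The F test passed 1 member with zeros kept, 1 without S04L, S22L and S38L and 2 without S02L, S09L and S21L. Causes of these shifts were not tested beyond the samples left out. The median of all genes moved to -0.11 at day 9 with quantile normalization and at day 5 without subtraction of medians. No paired analysis was possible because the numbers in the sample names differ between sham and obstructed kidneys.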
